A study of Mus musculus with 12 samples.

Results

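Astrocytes labelled as knockout of Arrb2 were compared with wild-type astrocytes, both treated with phosphate-buffered saline (PBS) for 24 h without toxin. The comparison took the 3 knockout and the 3 wild-type PBS libraries and every gene on an autosome, with pseudogenes counted apart. Of the 32742 genes in the deposited table, 26931 lay on autosomes and were not pseudogenes, and 18538 of these had enough counts to be tested. A further 4600 were autosomal pseudogenes, of which 1835 were tested. Per the labels, the cells were primary astrocytes from the midbrain of newborn mice, sampled at Day 14, and the whole series holds 12 such samples. The groups used here were the Arrb2 knockout in PBS (3 libraries) and the wild type in PBS (3 libraries), set beside the knockout and the wild type given MPP+, a mitochondrial toxin, at 500 µM for 24 h (3 libraries each). The labels give no strain, no sex and no description of the knockout allele, and they do not say which libraries came from separate cultures or litters, so p-values measure the spread between these samples, which may be technical. The protocol shook the mixed cultures to detach microglia, oligodendrocytes, neurons and fibroblasts, and judged purity by staining for GFAP.

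Beta-arrestins are cytosolic adaptors. They bind G protein-coupled receptors that receptor kinases have phosphorylated, end their coupling to G proteins, link them to clathrin and its adaptor AP-2 for uptake, and hold kinases of the ERK pathway in complexes. Arrb2 encodes beta-arrestin 2 and Arrb1 the closely related beta-arrestin 1, and astrocytes express many receptors of this class, among them those for glutamate, purines, endothelin and noradrenaline.

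The PBS libraries held between 67367654 and 69543713 counts, over 24334 to 24706 genes with counts. In a principal component analysis of the 6 PBS libraries, the first component took 40.6% of the variance and separated the genotypes. The second took 15.4% and set knockout library 2 (-51.8) and wild-type library 2 (-37.2) apart from the others (11.2 to 34.9). Summed over the genes of the Y chromosome on the list of sex-linked markers, the knockout libraries held 39.4, 127 and 129 CPM (counts scaled to a common effective library size), against 0, 0 and 0.23 CPM in wild type, so genotype and the sex of the culture cannot be told apart. In MPP+ the knockout libraries held 43.1, 131 and 129 CPM of the same genes, so that the sums followed the replicate number. Xist, the X-linked gene of the list, averaged 478 CPM in the knockout and 826 CPM in wild type in PBS. RNA of Xist and of Y-linked genes was thus present together in the knockout group.

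Between the genotypes in PBS, 2165 of the 18538 autosomal genes tested were called (11.7%), with edgeR's quasi-likelihood test and a Benjamini-Hochberg adjusted p under 0.05 over all 21129 tested genes of the table. In the knockout 1019 genes were higher (5.5%) and 1146 lower (6.18%). The typical call was small. The median size of a called difference was 0.64 on the log2 scale, the 25th and 75th percentiles were 0.39 and 1.16, and 672 genes (3.62%) differed at least 2-fold, 326 of them higher and 346 lower. In 2157 of the called genes every library of one genotype lay above every library of the other, which held for 35.3% of all autosomal genes tested. Protein-coding genes were called in 2054 of 15040 cases (13.7%), long intergenic RNAs in 40 of 935 (4.28%) and genes of the antisense class in 25 of 987 (2.53%). Scaling by library totals gave 793 higher and 1551 lower calls (33.8% of the calls higher, where the fit above gave 47.1%), and limma on log2(FPKM + 0.5) gave 959 and 1821 (34.5%). The number of calls fell to 1155 without knockout library 1, to 1131 without knockout library 3, to 1027 without wild-type library 2 and to 1421 without wild-type library 3. Values below are given in the order of libraries 1 to 3, with ± as the standard error of a log2 difference or the SD of CPM (n = 3), and a call is said to be lost where the adjusted p rose above 0.05 without the library named.

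**Figure D1:**
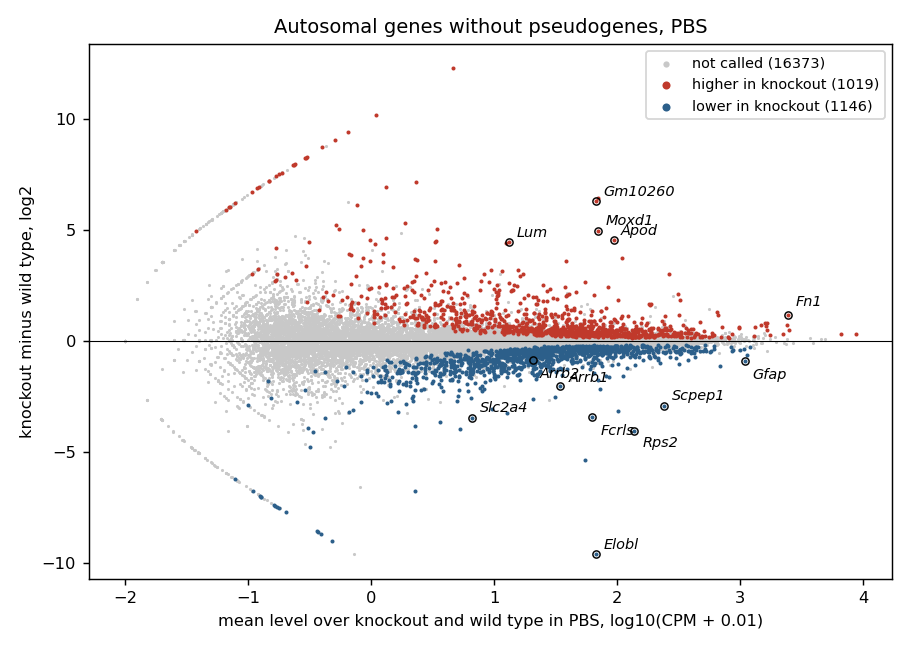
Knockout minus wild type on the log2 scale (vertical axis) against the mean level of the 6 PBS libraries as log10(CPM + 0.01) (horizontal axis) for the 18538 autosomal genes tested, with 1019 called higher in red and 1146 called lower in blue. Most calls lie within 2-fold. Elobl, Rps2, Fcrls and Scpep1 fall and Gm10260, Moxd1 and Apod rise far from the rest, at mean levels well above the lowest. Gm10260 and Rps2 share transcript sequence with other genes, so reads could have been assigned to either.

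The knockout held less RNA of both beta-arrestins, and RNA of Arrb2 remained in each knockout library. Arrb2 (ENSMUSG00000060216, GRCm38 chromosome 11, 70432635 to 70440828, plus strand) had 14.4, 16.1 and 13.8 CPM in the knockout, against 31, 26.4 and 21.7 CPM in wild type. The groups did not overlap (log2 difference -0.83 ± 0.16, adjusted p = 0.0084), and the call held without any 1 of the 6 PBS libraries. Arrb1 (ENSMUSG00000018909, chromosome 7, 99535466 to 99606771, plus strand) had 13.2, 13.4 and 14.4 CPM in the knockout, against 55.2, 58.9 and 51.6 CPM in wild type. Every wild-type library held more Arrb1 than any knockout library (log2 difference -2.01 ± 0.49, adjusted p = 0.0225), but the call was lost without any knockout library and without wild-type library 2 (adjusted p up to 0.0815). The log2 difference stayed between -2.07 and -1.98 without any 1 library. In an edgeR fit of the 2 PBS groups alone the adjusted p was 9.12e-05. The main fit estimates the spread over all 12 libraries. In MPP+ Arrb1 had 37.6, 6.21 and 18.5 CPM in the knockout, against 31.3, 23.9 and 14.1 CPM in wild type. Of the 8 arrestins and alpha-arrestins tested, 3 were lower and 0 higher (37.5%, beside 11.7% of all and 13.7% of protein-coding autosomal genes). Their median was -0.34, beside a median of -0.01 over all autosomal genes. The 3 include both beta-arrestins, and Arrb2 is the gene labelled as knocked out, so its fall is no separate result about the family. The third was Txnip, an alpha-arrestin that binds thioredoxin and lowers glucose uptake, at 149 ± 25.5 CPM in knockout and 296 ± 5.71 CPM in wild-type cells (log2 difference -0.99 ± 0.14, adjusted p = 0.00175). Counts over a whole gene do not show which exons the Arrb2 reads of the knockout came from.

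Receptor kinases and RGS proteins act on the same receptors, and clathrin and its partners take them up. Of 23 kinases and RGS genes tested, 2 were higher and 2 lower (17.4%, beside 11.7% of all and 13.7% of protein-coding autosomal genes). Rgs16 and Grk5 were higher (90.3 against 60.1 CPM for Rgs16, log2 difference 0.59 ± 0.1, adjusted p = 0.00439), while Rgs2 fell to 23.5 CPM in the knockout, against 35 CPM in wild type (log2 difference -0.58 ± 0.11, adjusted p = 0.0068). The calls of Grk5 and Rgs10 were lost without wild-type library 2 (adjusted p up to 0.0592) and without knockout library 3 and without any wild-type library (adjusted p up to 0.124). Of 31 clathrin endocytosis genes tested, 4 were higher and 1 lower, a share of 16.1%. Mdm2, a ubiquitin ligase that acts on beta-arrestin as well as on p53, had 166 ± 13.2 CPM in knockout and 115 ± 2.81 CPM in wild-type cells (log2 difference 0.53 ± 0.087, adjusted p = 0.00354). Snap91 and Dnm1 averaged 6.3 against 3.9 CPM and 5.52 against 4.03 CPM (knockout first), and their calls were lost without wild-type library 2 or 3 (adjusted p up to 0.0619) and without any knockout library and without any wild-type library (adjusted p up to 0.179). The receptor kinases and RGS proteins list had 2 higher and 1 lower calls without knockout 3 or wild-type 1 or wild-type 3, and 1 higher and 1 lower calls without wild-type 2. The clathrin endocytosis list had 2 higher and 0 lower calls without knockout 1 or knockout 3 or wild-type 1 or wild-type 3, and 1 higher and 0 lower calls without wild-type 2.

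The neighbouring genes Elobl and Scpep1 on chromosome 11 fell, and their values hardly varied within a genotype. Elobl (ENSMUSG00000057534, chromosome 11, 88964658 to 88966931, minus strand), a gene similar to that of elongin B, had 0.0898, 0.193 and 0.229 CPM in the knockout, against 130.1, 134 and 139 CPM in wild type. It was close to absent in the knockout and well measured in wild type (log2 difference -9.61 ± 0.36, adjusted p = 9.38e-08). Scpep1 (ENSMUSG00000000278, chromosome 11, 88924020 to 88955465, minus strand), which encodes a serine carboxypeptidase of the lysosome, had 57.1, 56.5 and 56.9 CPM in the knockout, against 438, 416 and 427 CPM in wild type. Its 3 libraries differed little within a genotype (log2 difference -2.91 ± 0.045, adjusted p = 1.88e-11), and the log2 difference lay between -2.94 and -2.91 without any 1 library. Of the 50-base words in annotated Elobl transcripts, 12.1% also occur in transcripts of another gene, and of those in Scpep1 transcripts 2.34%, so that reads of either gene could mostly be told from other genes. The antisense gene Scpep1os overlaps Scpep1, and without strand its reads could not be told apart there. Elob, the gene of elongin B itself, chosen after its values were seen, had 61.9 ± 1.89 CPM in knockout and 47.1 ± 1.92 CPM in wild-type cells (adjusted p = 0.14). The windows from 250 bases before to 50 bases after the annotated starts of the pair, both on the minus strand, are shown because Elobl was nearly lost and Scpep1 had the lowest p of the named genes. They come from RefSeq (build GRCm38.p6) and are written 5′ to 3′ in the direction of transcription.
Elobl chr11:88966882-88967181: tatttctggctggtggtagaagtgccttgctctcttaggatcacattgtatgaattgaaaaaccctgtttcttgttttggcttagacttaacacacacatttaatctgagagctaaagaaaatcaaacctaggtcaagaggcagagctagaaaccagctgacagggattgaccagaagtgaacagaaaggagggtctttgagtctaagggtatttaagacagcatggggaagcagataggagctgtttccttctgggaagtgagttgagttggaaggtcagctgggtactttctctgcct
Scpep1 chr11:88955393-88955692: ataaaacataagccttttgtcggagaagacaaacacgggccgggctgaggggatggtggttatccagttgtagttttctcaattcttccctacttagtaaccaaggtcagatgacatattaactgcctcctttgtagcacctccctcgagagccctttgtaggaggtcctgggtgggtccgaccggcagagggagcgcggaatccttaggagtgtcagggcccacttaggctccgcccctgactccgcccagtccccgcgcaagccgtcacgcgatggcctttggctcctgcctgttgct

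The other large falls included Fcrls, Trem1, Slfn8 and Slc2a4. Fcrls, a receptor of microglia, had 11.8, 12.8 and 7.47 CPM in the knockout, against 142, 122 and 79.2 CPM in wild type. For Fcrls the log2 difference was -3.42 ± 0.37 (adjusted p = 0.000307). Trem1, an activating receptor of myeloid cells, had 0, 0.0595 and 0.061 CPM in the knockout, against 4.38, 4.37 and 4.77 CPM in wild type. For Trem1 the log2 difference was -6.75 ± 0.63 (adjusted p = 0.000366). Slfn8, a gene of the Schlafen family, fell to 0.528 CPM in the knockout, against 6.69 CPM in wild type (log2 difference -3.66 ± 0.45, adjusted p = 0.000685). Slc2a4, the insulin-regulated glucose transporter GLUT4, had 1.29, 1.55 and 0.519 CPM in the knockout, against 11.8, 12.7 and 11.9 CPM in wild type. For Slc2a4 the log2 difference was -3.44 ± 0.39 (adjusted p = 0.000409). In each of these genes the highest knockout library lay below the lowest wild-type library. Rec8, a cohesin subunit of meiosis, had 2.43 ± 1.42 CPM in knockout and 22.8 ± 1.52 CPM in wild-type cells (log2 difference -3.23 ± 0.52, adjusted p = 0.00316), and Runx3, a transcription factor, 0.335 ± 0.197 CPM in knockout and 2.32 ± 0.642 CPM in wild-type cells (log2 difference -2.79 ± 0.44, adjusted p = 0.00308). Zbbx and Fam216b were also among the 12 largest falls, at 0.32 against 2.94 CPM and 0.469 against 3.37 CPM (knockout first), but their calls were lost without knockout library 1 or 3 and without wild-type library 2 or 3 (adjusted p up to 0.094) and without knockout library 1 or 3 and without wild-type library 2 (adjusted p up to 0.0702). Pcdhga2, at 20.2, 20 and 21.9 CPM in the knockout, against 38.9, 22.3 and 483 CPM in wild type, rested on 1 library, and its log2 difference was -0.57 and not called without wild-type library 3. It was lost too without any knockout library. Its gene model overlaps the other genes of the gamma protocadherin cluster, whose reads were counted by a rule not given in the sources used here.

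**Figure D2:**
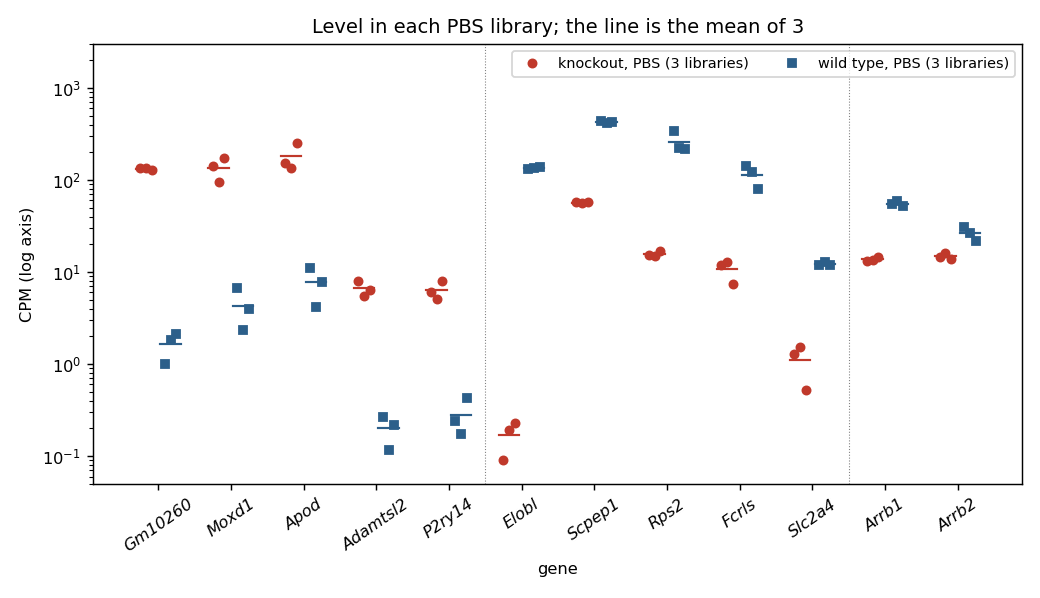
CPM on a log axis in each of the 3 knockout (red circles) and 3 wild-type (blue squares) PBS libraries for 5 genes that rose, 5 that fell and the beta-arrestins, with lines at the mean of 3. The groups do not overlap in any of the 12 genes, and the 3 libraries of Scpep1 lie almost on one another within each genotype.

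The largest rises included Moxd1, Apod, Adamtsl2, P2ry14 and Gzme. Moxd1, a monooxygenase related to dopamine beta-hydroxylase, had 140.2, 93.9 and 173 CPM in the knockout, against 6.63, 2.34 and 4.0 CPM in wild type. For Moxd1 the log2 difference was 4.97 ± 0.38 (adjusted p = 2.91e-05). Apod, a lipid-binding apolipoprotein, had 154, 133 and 252 CPM in the knockout, against 11.1, 4.21 and 7.88 CPM in wild type. For Apod the log2 difference was 4.54 ± 0.42 (adjusted p = 0.000127). Adamtsl2, a secreted protein of the microfibril network, had 8.02, 5.54 and 6.45 CPM in the knockout, against 0.268, 0.117 and 0.216 CPM in wild type. For Adamtsl2 the log2 difference was 5.04 ± 0.59 (adjusted p = 0.000516). P2ry14, a receptor for UDP-sugars, had 6.09, 5.09 and 7.9 CPM in the knockout, against 0.238, 0.176 and 0.431 CPM in wild type. For P2ry14 the log2 difference was 4.48 ± 0.46 (adjusted p = 0.000226). Gzme, a granzyme of cytotoxic cells, had 3.44, 0.774 and 2.23 CPM in the knockout and 0 counts in wild type, which makes it at least 146-fold higher when wild type as a group is set to 3 counts (adjusted p = 0.00548). In these 5 genes every knockout library lay above every wild-type library. C4bp, a regulator of complement, and Gpr176, an orphan receptor, averaged 2.54 against 0.0987 CPM and 6.42 against 0.284 CPM (knockout first), and their calls were lost without knockout library 1 or 3 and without wild-type library 2 or 3 (adjusted p up to 0.0763) and without knockout library 1 or 3 and without any wild-type library (adjusted p up to 0.0699). Knockout library 2 held only 0.417 CPM of Gpr176, where the others held 10.5 and 8.39 CPM.

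The remaining large rises were in genes that share much of their sequence with others, so that reads could have been assigned to either. Gm10260 had 136, 134 and 128 CPM in the knockout, against 1.01, 1.85 and 2.11 CPM in wild type (log2 difference 6.32 ± 0.27, adjusted p = 2.26e-07), and 96.5% of its 50-base words occur in transcripts of other genes, Rps18 among them. Rps18 encodes a protein of the small ribosomal subunit. Tmem254a had 11.4, 9.03 and 7.4 CPM in the knockout and 0 counts in wild type (at least 634-fold higher, adjusted p = 0.0322), with 73.1% of its words shared with Tmem254b. This call was lost without each of the 6 libraries in turn (adjusted p up to 0.0936). In an edgeR fit of the 2 PBS groups alone its adjusted p was 0.00107, and wild type in MPP+ had 0, 6.12 and 0 CPM. Summed over Tmem254a, Tmem254b and Tmem254c the levels were 58.3 ± 7.13 CPM in the knockout and 73.2 ± 13.2 CPM in wild type (SD, n = 3). Prl2c3, a prolactin-family hormone, had 3.62 ± 0.668 CPM in knockout and 0.0872 ± 0.0941 CPM in wild-type cells (log2 difference 5.34 ± 0.89, adjusted p = 0.0039). It shares 60.0% of its words with Prl2c2, and the sum of the 3 family members measured was 13.2 ± 4.83 CPM in the knockout and 0.976 ± 0.503 CPM in wild type. A second gene model named Myl12b (ENSMUSG00000117098) spans Myl12a and the first Myl12b model, shares 95.6% of its words with other genes and had 162, 115 and 134 CPM in the knockout, against 1.42, 2.11 and 1.19 CPM in wild type (log2 difference 6.45 ± 0.47, adjusted p = 1.91e-05), while the first model had 106 ± 1.09 CPM in knockout and 139 ± 2.56 CPM in wild-type cells (log2 difference -0.39 ± 0.064, adjusted p = 0.00366). Gm49527, which overlaps Commd5 and Zfp7, had 13.1, 0.491 and 0.061 CPM in the knockout, against 0.0447, 0.0147 and 0.0288 CPM in wild type, and its call was lost without knockout library 1 and without any wild-type library (adjusted p up to 0.264).

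Of the 1835 pseudogenes tested 73 were called (3.98%), 58 higher (3.16%) and 15 lower (0.817%) in the knockout. Rps2, the gene of a small-subunit ribosomal protein, and its pseudogene Rps2-ps10 differed in opposite directions. Rps2 had 15.3, 15.1 and 16.7 CPM in the knockout, against 343, 219.7 and 215 CPM in wild type (log2 difference -4.04 ± 0.32, adjusted p = 3.68e-05), while its processed pseudogene Rps2-ps10 had 478, 411 and 449 CPM in the knockout, against 12.7, 2.46 and 1.91 CPM in wild type. For Rps2-ps10 the log2 difference was 6.30 ± 0.65 (adjusted p = 0.000244). Of the words of Rps2-ps10, 96.3% occur in other genes, Rps2 among them, and summed over Rps2 and 8 Rps2 pseudogenes the levels were 565 ± 52.4 CPM in the knockout and 283 ± 80.6 CPM in wild type (SD, n = 3). The histone pseudogene Hist1h2al had 7.84, 6.3 and 6.89 CPM in the knockout and 0 counts in wild type (at least 479-fold higher, adjusted p = 3.03e-05). Gm9825, of which 72.2% is shared with Rnps1, had 35.5 ± 3.56 CPM in knockout and 0.304 ± 0.18 CPM in wild-type cells (log2 difference 6.86 ± 0.32, adjusted p = 4.46e-07). Among the pseudogenes that fell, Gm8995 had 4.94 ± 0.902 CPM in knockout and 17 ± 3.54 CPM in wild-type cells, Gm11249 3.1 ± 0.558 CPM in knockout and 7.28 ± 0.886 CPM in wild-type cells and Gm19196 0.942 ± 0.194 CPM in knockout and 2.3 ± 0.408 CPM in wild-type cells. In 12 called pseudogenes wild type had no counts in any library, and in 3 the knockout had none.

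By the difference in mean CPM, Igfbp5, Fn1, Pea15a, Igfbp2, Itgb1, Cald1, Ccnd2, Akap12 and Thbs1 were the furthest above wild type, and Gfap the furthest below, among the 10 genes named for this. Igfbp5, a binding protein of insulin-like growth factors, had 9627, 9996 and 9538 CPM in the knockout, against 7642, 7457 and 8254 CPM in wild type. For Igfbp5 the log2 difference was 0.32 ± 0.076 (adjusted p = 0.0202). Its rise was small against its level, and the call was lost without any knockout library and without wild-type library 1 or 2 (adjusted p up to 0.11). Fn1, which encodes fibronectin, had 3494, 2739.6 and 4022 CPM in the knockout, against 1829, 1143 and 1519 CPM in wild type. For Fn1 the log2 difference was 1.19 ± 0.18 (adjusted p = 0.00204). Pea15a, a cytosolic protein that binds ERK, had 7479, 7413 and 7008 CPM in the knockout, against 5984, 5624 and 5838 CPM in wild type. For Pea15a the log2 difference was 0.33 ± 0.061 (adjusted p = 0.00651). The call held without any 1 library and was lost with limma on log2 FPKM. Igfbp2 had 2993 ± 586 CPM in knockout and 1797 ± 138 CPM in wild-type cells, Itgb1, the beta-1 integrin, 2121 ± 456 CPM in knockout and 1199 ± 103 CPM in wild-type cells, and Akap12, a scaffold of protein kinase A, 1987 ± 197 CPM in knockout and 1234 ± 206 CPM in wild-type cells, with adjusted p = 0.00307, 0.00422 and 0.00289. Cald1, Ccnd2 and Thbs1 averaged 2021 against 1139 CPM, 2916 against 2071 CPM and 1825 against 1109 CPM (knockout first), and their calls were lost without knockout library 1 or 3 and without wild-type library 2 (adjusted p up to 0.0601), without wild-type library 2 (adjusted p up to 0.053) and without knockout library 1 or 3 and without any wild-type library (adjusted p up to 0.123). Gfap was the one gene among these 10 that fell.

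Genes of receptors, most of which couple to G proteins, were mostly lower where they were called. Of 62 receptor genes tested, 6 were higher and 17 lower (37.1%, beside 11.7% of all and 13.7% of protein-coding autosomal genes), with a median of -0.17. Ednrb, the endothelin B receptor, had 18.8, 34.4 and 43.6 CPM in the knockout, against 141, 96.5 and 86.7 CPM in wild type. For Ednrb the log2 difference was -1.74 ± 0.3 (adjusted p = 0.00476). Grm3, a metabotropic glutamate receptor, had 2.33, 5.88 and 4.32 CPM in the knockout, against 14.7, 14.5 and 13.2 CPM in wild type. For Grm3 the log2 difference was -1.76 ± 0.28 (adjusted p = 0.00317). Knockout library 1 was the lowest for both genes, and no knockout library reached the lowest wild-type one. Adra1a, an alpha-1 adrenergic receptor, had 1.9 ± 0.323 CPM in knockout and 4.79 ± 0.918 CPM in wild-type cells (log2 difference -1.34 ± 0.24, adjusted p = 0.00555), and Ackr3, an atypical chemokine receptor that signals through arrestins, had 17.5 ± 4.46 CPM in knockout and 36.7 ± 3.14 CPM in wild-type cells (log2 difference -1.07 ± 0.15, adjusted p = 0.00155). The lower set also held S1pr1, Ednra, Celsr1, Cxcr4, Lpar1 and Smo. P2ry12, also a microglial marker, was lower at 2.04 against 5.68 CPM (knockout first), a call lost without knockout library 1 or 3 and without wild-type library 1 or 2 (adjusted p up to 0.0915). Apart from P2ry14, the genes that rose were Htr2a, Bdkrb2, F2r, Fzd7 and Fzd1, with log2 differences from 0.31 to 0.80. The astrocyte receptors list had 3 higher and 11 lower calls without knockout 1 or knockout 3, 3 higher and 15 lower calls without wild-type 1, and 2 higher and 10 lower calls without wild-type 2.

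Genes that mark astrocytes were lower in the knockout wherever they were called. Of 39 astrocyte identity genes tested, 13 fell and 0 rose (33.3%, beside 11.7% of all and 13.7% of protein-coding autosomal genes), with a median of -0.35. Gfap, the intermediate filament of astrocytes, had 685, 929.9 and 692 CPM in the knockout, against 1319.9, 1599 and 1384 CPM in wild type. For Gfap the log2 difference was -0.90 ± 0.16 (adjusted p = 0.00525). Aldh1l1, a folate enzyme used as a general astrocyte marker, had 291, 374 and 313 CPM in the knockout, against 502, 557 and 527 CPM in wild type. For Aldh1l1 the log2 difference was -0.70 ± 0.09 (adjusted p = 0.000943). The genotypes did not overlap for either gene, with knockout library 2 nearest to wild type. Id4, a transcriptional inhibitor, had 139 ± 18.7 CPM in knockout and 233 ± 17.4 CPM in wild-type cells (log2 difference -0.74 ± 0.11, adjusted p = 0.00235), Kcnj16, a potassium channel subunit, 12.9 ± 2.86 CPM in knockout and 25.6 ± 2.49 CPM in wild-type cells (log2 difference -0.99 ± 0.14, adjusted p = 0.00182), and Entpd2, an ectonucleotidase, 4.82 ± 1.6 CPM in knockout and 15.6 ± 3.34 CPM in wild-type cells (log2 difference -1.70 ± 0.28, adjusted p = 0.00345). Slc1a3, the glutamate transporter GLAST, averaged 893 against 1386 CPM (knockout first), a call lost without knockout library 1 or 3 and without wild-type library 2 (adjusted p up to 0.0868). Other identity genes, picked after their values were seen, did not pass: Glul, glutamine synthetase, had 1046 ± 83.7 CPM in knockout and 902 ± 10.9 CPM in wild-type cells (adjusted p = 0.0726), Slc1a2, the transporter GLT-1, 243 ± 35.4 CPM in knockout and 223 ± 8.67 CPM in wild-type cells (adjusted p = 0.524), and Gja1, connexin 43, 219.9 ± 17.3 CPM in knockout and 270.1 ± 51.8 CPM in wild-type cells (adjusted p = 0.428). Summed over the 40 genes of the list, the knockout libraries held between 11933 and 14844 CPM and the wild-type ones between 15328 and 17175 CPM. The astrocyte identity list had 0 higher and 7 lower calls without knockout 1, and 0 higher and 6 lower calls without knockout 3 or wild-type 2.

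Genes that mark reactive astrocytes moved in both directions. Serpina3n, a secreted protease inhibitor, had 459.6, 589 and 488 CPM in the knockout, against 152, 138 and 129 CPM in wild type (log2 difference 1.88 ± 0.12, adjusted p = 1.06e-05), and Hspb1, a small heat shock protein, had 49.1 ± 6.1 CPM in knockout and 27.1 ± 1.26 CPM in wild-type cells (log2 difference 0.86 ± 0.12, adjusted p = 0.0013). With Gfap and S1pr3 lower, 2 of the 12 pan-reactive genes tested rose and 2 fell, the fall of S1pr3 being lost without knockout library 1 or 3 and without wild-type library 2 or 3 (adjusted p up to 0.0826). Of the 11 A1 genes tested, Fbln5 rose and H2-T23, Srgn and Ggta1 fell. Of the 11 A2 genes, Ptgs2, Sphk1 and Tm4sf1 rose and Cd109 fell. The shares called in the pan-reactive, A1 and A2 lists were 33.3%, 36.4% and 36.4%. Over all autosomal genes tested the share was 11.7%, and over protein-coding ones 13.7%. Ptgs2, the inducible cyclooxygenase, had 40.8, 35.4 and 49.9 CPM in the knockout, against 17.1, 5.98 and 12.6 CPM in wild type. For Ptgs2 the log2 difference was 1.82 ± 0.29 (adjusted p = 0.00311). The pan-reactive astrocyte genes list had 2 higher and 1 lower calls without knockout 1 or knockout 3 or wild-type 2 or wild-type 3. The A2 reactive astrocyte genes list had 2 higher and 2 lower calls without knockout 1.

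Markers of microglia were lower in the knockout where they were called, and 4 of those of fibroblasts and meninges were higher. In bulk RNA, fewer cells of a type and less RNA per cell cannot be told apart. All 20 microglial markers tested had a negative log2 difference and 8 were called (40%), with a median of -0.91. Over all autosomal genes tested 11.7% were called, and over protein-coding ones 13.7%. Csf1r, the receptor of colony-stimulating factor 1, had 81.1, 78 and 58.4 CPM in the knockout, against 196, 185 and 127 CPM in wild type. For Csf1r the log2 difference was -1.22 ± 0.24 (adjusted p = 0.00872). Laptm5 and Ptprc, a lysosomal membrane protein and the common leukocyte antigen, had 35.8 ± 3.65 CPM in knockout and 84.7 ± 20.7 CPM in wild-type cells and 16.7 ± 2.29 CPM in knockout and 36.2 ± 7.35 CPM in wild-type cells. Summed over the 20 markers, the knockout libraries held 904 to 1249 CPM and the wild-type libraries 1304 to 1955 CPM, with none at 0, so RNA of these cells was present in both genotypes after shaking. The microglia and macrophages list had 0 higher and 5 lower calls without knockout 1, and 0 higher and 3 lower calls without knockout 3 or wild-type 1 or wild-type 2. Of 14 fibroblast and meningeal markers, 4 rose and 1 fell (35.7%, sum of the list 1812 to 2171 CPM in the knockout and 792 to 1784 CPM in wild type, none at 0). Of 12 oligodendrocyte markers 3 rose and 2 fell (41.7%). Of 12 neuronal markers Syt1 and Tubb3 rose, a share of 16.7%, near that of protein-coding genes. These calls were lost without any knockout library and without any wild-type library (adjusted p up to 0.088) and without knockout library 1 and without wild-type library 2 (adjusted p up to 0.0638). The oligodendrocyte lineage list had 2 higher and 1 lower calls without knockout 1 or knockout 3 or wild-type 1, 3 higher and 1 lower calls without knockout 2, and 1 higher and 1 lower calls without wild-type 2. The neurons list had 0 higher and 0 lower calls without knockout 1 or wild-type 2, and 1 higher and 0 lower calls without knockout 2 or knockout 3 or wild-type 1 or wild-type 3.

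**Figure D3:**
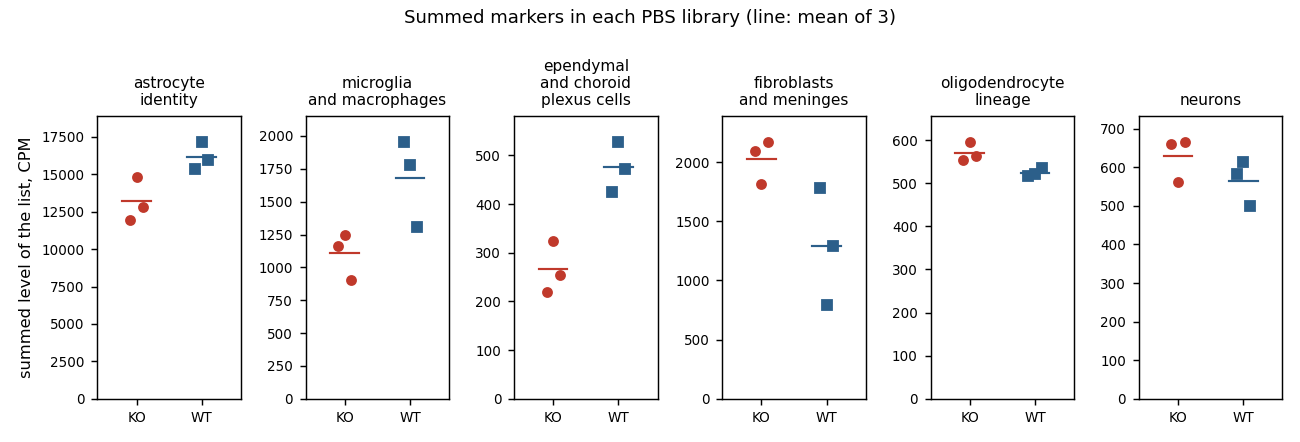
Summed CPM of the astrocyte identity list and 5 marker lists in each PBS library, knockout (KO, red circles) left of wild type (WT, blue squares), with lines at the mean of 3 and axes from 0. The microglial and ependymal sums and the astrocyte sum are lower in every knockout library than in any wild-type library, and the fibroblast sum is higher in every knockout library.

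Ciliary genes were mostly lower in the knockout where they were called. Of the 11 ependymal and choroid plexus markers tested, 6 fell and 0 rose (54.5%, median -0.76), and none of the 11 was at 0. Over all autosomal genes tested 11.7% were called, 6.18% of them as lower, and over protein-coding ones 13.7%. The sum over all 13 markers of the list was 220 to 325 CPM in the knockout and 426 to 528 CPM in wild type. Foxj1, the transcription factor that drives motile cilia, had 135, 192 and 156 CPM in the knockout, against 245, 292 and 271 CPM in wild type. For Foxj1 the log2 difference was -0.74 ± 0.12 (adjusted p = 0.00342). Dnah5 and Dnah11, heavy chains of axonemal dynein, had 10.7 ± 3.5 CPM in knockout and 31.2 ± 5.78 CPM in wild-type cells and 4.21 ± 1.61 CPM in knockout and 12.3 ± 2.85 CPM in wild-type cells (log2 difference -1.54 ± 0.27, adjusted p = 0.00458 for Dnah5). Ccdc153 fell to 2.1 CPM in the knockout, against 5.7 CPM in wild type, while the calls of Dnah9 and Rarres2 were lost without knockout library 1 or 3 and without wild-type library 2 or 3 (adjusted p up to 0.0972) and without knockout library 1 (adjusted p up to 0.0513). Knockout library 2 was the highest of the knockout libraries for each of these dyneins and for Foxj1, and it still lay below wild type. In gene ontology terms picked after values were seen, 17 of 34 cilium movement genes fell and 1 rose (52.9%). Of 71 axoneme genes 28 fell and 0 rose (39.4%). Both terms hold Dnah5 and Dnah11 of the marker list, and axoneme also Dnah9, so their counts are not separate from it. Whether the fall of ciliary genes came with fewer ciliated cells was not tested.

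The promoters of ciliary genes were searched for a strict form of the X-box, the site of ciliary RFX factors, also picked after values were seen. The form was the letters GTTNCC, any 2 bases and GGNAAC, on both strands. Sites with other letters or another spacing were not searched for, so a window without this form may still hold an X-box. Windows ran from 250 bases before to 50 after the start. Of those of the cilium movement genes that fell, 16 were in the RefSeq table and 1 held this form. Of those of the axoneme genes 25 were there and the same 1 held this form, beside 148 of all 32851 windows (0.451%). This window belongs to Ccdc151, a component of ciliary dynein arms, and is shown with the match in capitals, from the minus strand of chromosome 9 (GRCm38.p6).
Ccdc151 chr9:22002585-22002884: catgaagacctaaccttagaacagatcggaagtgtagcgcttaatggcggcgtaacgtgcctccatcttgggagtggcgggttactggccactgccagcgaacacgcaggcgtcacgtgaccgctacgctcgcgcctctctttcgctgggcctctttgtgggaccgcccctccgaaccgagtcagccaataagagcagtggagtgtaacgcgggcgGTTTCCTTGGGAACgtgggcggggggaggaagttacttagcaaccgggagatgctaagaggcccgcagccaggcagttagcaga

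Genes of innate immune sensing were lower where they were called, as the microglial markers were. Of 20 inflammasome genes tested, 11 fell and 0 rose (55%, median -0.75). Nlrp1a, a sensor subunit, had 0 counts in the knockout and 1.37, 1.17 and 0.273 CPM in wild type, at least 62.0-fold lower (adjusted p = 0.00572). Casp4, the caspase that binds lipopolysaccharide, had 1.86 ± 0.565 CPM in knockout and 4.73 ± 0.718 CPM in wild-type cells (log2 difference -1.35 ± 0.23, adjusted p = 0.00474). The Naip genes, whose products sense bacterial proteins, averaged 5.9 against 13.8 CPM for Naip2, 2.37 against 5.02 CPM for Naip5 and 1.27 against 3.46 CPM for Naip6 (knockout first), with calls lost without knockout library 3 (adjusted p up to 0.0519), without knockout library 3 and without wild-type library 2 (adjusted p up to 0.0662) and without knockout library 1 or 3 and without wild-type library 1 or 2 (adjusted p up to 0.113). The inflammasome list had 0 higher and 5 lower calls without knockout 1, 0 higher and 3 lower calls without knockout 3, 0 higher and 7 lower calls without wild-type 1, and 0 higher and 6 lower calls without wild-type 2. Of 24 NF-kappaB genes 3 rose and 3 fell (25%, beside 11.7% of all autosomal genes). Traf1, a signalling adaptor, had 30.7, 56.9 and 36.5 CPM in the knockout, against 97.7, 149 and 117 CPM in wild type (log2 difference -1.55 ± 0.25, adjusted p = 0.00344), while Icam1, an adhesion molecule, had 112 ± 6.31 CPM in knockout and 81.1 ± 8.57 CPM in wild-type cells (log2 difference 0.46 ± 0.076, adjusted p = 0.00343). The part of the lower microglial RNA in these falls was not tested. 

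Interferon-induced and class I genes split within families. Of 54 interferon genes 3 rose and 7 fell (18.5%, beside 11.7% of all and 13.7% of protein-coding autosomal genes). Irgm1 had 132, 123 and 121 CPM in the knockout, against 66.3, 64.1 and 65.5 CPM in wild type (log2 difference 0.94 ± 0.12, adjusted p = 0.000914), whereas its relative Irgm2, also a GTPase induced by interferon gamma, had 19.4, 24.8 and 25.4 CPM in the knockout, against 55.5, 57.8 and 50.1 CPM in wild type. For Irgm2 the log2 difference was -1.23 ± 0.16 (adjusted p = 0.000824). Xaf1, an interferon-induced gene linked to apoptosis that lies within 2 Mb of Arrb2, had 49.6, 87.7 and 61.4 CPM in the knockout, against 16.3, 17.2 and 12.7 CPM in wild type. For Xaf1 the log2 difference was 2.10 ± 0.21 (adjusted p = 0.00017). Gbp4 rose and Igtp fell (6.85 against 2.58 CPM and 17.6 against 36.9 CPM, knockout first), and the fall of Gbp6 was lost without knockout library 1 or 3 and without wild-type library 1 or 2 (adjusted p up to 0.116). Of 27 class I genes 2 rose and 7 fell (33.3%). H2-T22 and H2-T23, nonclassical class I genes, had 21 ± 1.87 CPM in knockout and 50.5 ± 2.65 CPM in wild-type cells and 7.9 ± 0.983 CPM in knockout and 23 ± 2.44 CPM in wild-type cells (log2 difference -1.27 ± 0.091, adjusted p = 1.91e-05 for H2-T22). H2-T10, annotated as a polymorphic pseudogene and picked after its values were seen, had 20.7 ± 3.14 CPM in knockout and 2.51 ± 0.401 CPM in wild-type cells (log2 difference 3.04 ± 0.18, adjusted p = 3.14e-06). H2-T22 and H2-T10 share 31.2% and 31.7% of their 50-base words with each other, so reads could have been exchanged between them. Of the 16 genes listed for differing between mouse strains, 2 rose and 5 fell, and within one family Trim34b was higher, at 6.29 ± 0.912 CPM in knockout and 1.03 ± 0.0697 CPM in wild-type cells, and Trim34a lower, at 13.5 ± 1.59 CPM in knockout and 25.1 ± 1.02 CPM in wild-type cells. Of the words of Trim34b, 56.8% occur in Trim34a. The interferon response list had 3 higher and 3 lower calls without knockout 1 or wild-type 1 or wild-type 2, and 3 higher and 4 lower calls without knockout 3. The class I antigen presentation list had 1 higher and 3 lower calls without knockout 1, 1 higher and 4 lower calls without knockout 3 or wild-type 1, and 1 higher and 2 lower calls without wild-type 2. The strain-variable genes list had 2 higher and 3 lower calls without knockout 3 or wild-type 2.

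Complement and chemokine genes were higher in some members and lower in others. Masp1, a protease of the lectin pathway, had 125, 57.9 and 101 CPM in the knockout, against 16, 12.4 and 15.7 CPM in wild type. For Masp1 the log2 difference was 2.68 ± 0.28 (adjusted p = 0.00026). Every knockout library lay above every wild-type one. C2 had 9.22 ± 0.557 CPM in knockout and 3.97 ± 0.359 CPM in wild-type cells (log2 difference 1.22 ± 0.11, adjusted p = 9.56e-05), and Cfi, factor I, averaged 5.29 against 2.01 CPM, a call lost without knockout library 1 or 3 and without any wild-type library (adjusted p up to 0.0918). C3, the central component, fell to 252, 638 and 407 CPM in the knockout, against 967, 1041 and 828 CPM in wild type (log2 difference -1.13 ± 0.29), but the call was lost without knockout library 1 or 3 and without any wild-type library (adjusted p up to 0.0993). C1qb and C1qc, made by microglia, were lower, calls lost without knockout library 3 and without wild-type library 1 or 2 (adjusted p up to 0.0696) and without knockout library 1 or 3 and without wild-type library 1 or 2 (adjusted p up to 0.112). Of 25 complement genes 4 rose and 4 fell (32%, beside 11.7% of all autosomal genes). Of 18 chemokine genes 4 rose and 4 fell (44.4%). Cxcl12 had 25.6, 17 and 8.45 CPM in the knockout, against 3.8, 3.85 and 4.77 CPM in wild type (log2 difference 2.04 ± 0.42, adjusted p = 0.011), and the call was lost without wild-type library 2 (adjusted p up to 0.0542). Ccl9 and Ccl12 fell, at 1.31 against 4.2 CPM and 0.816 against 3.32 CPM (knockout first). The complement list had 3 higher and 1 lower calls without knockout 1, 3 higher and 2 lower calls without knockout 3, and 3 higher and 0 lower calls without wild-type 1 or wild-type 2. The chemokines list had 3 higher and 2 lower calls without knockout 1 or knockout 2 or wild-type 1, 2 higher and 2 lower calls without knockout 3, 1 higher and 2 lower calls without wild-type 2, and 2 higher and 3 lower calls without wild-type 3.

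Genes of the extracellular matrix, those of basement membranes among them, were mostly higher where they were called. Of 69 collagen and matrix genes tested, 21 rose and 5 fell (37.7%, beside 11.7% of all and 13.7% of protein-coding autosomal genes), with a median of 0.45. Lama1, the alpha-1 chain of laminin, had 30.6, 19.8 and 34.2 CPM in the knockout, against 3.61, 3.36 and 2.2 CPM in wild type. For Lama1 the log2 difference was 3.21 ± 0.3 (adjusted p = 0.000128). Lum, the small proteoglycan lumican, had 27.5, 16.1 and 32.4 CPM in the knockout, against 1.73, 0.908 and 0.805 CPM in wild type. For Lum the log2 difference was 4.46 ± 0.46 (adjusted p = 0.000248). Lamc3 had 0.778, 0.952 and 1.27 CPM in the knockout and 0 counts in wild type (at least 68.1-fold higher, adjusted p = 0.00655). These 3 calls held without any 1 library. Lamb1 and Nid1, a laminin chain and nidogen, averaged 104 against 24.9 CPM and 275 against 87 CPM (knockout first), calls lost without knockout library 3 and without wild-type library 2 or 3 (adjusted p up to 0.0579) and without knockout library 1 or 3 and without wild-type library 2 or 3 (adjusted p up to 0.0907). Wild-type library 2 was the lowest wild-type library for both. Col26a1, by contrast, had 3.14 ± 0.447 CPM in knockout and 8.69 ± 1.25 CPM in wild-type cells (log2 difference -1.47 ± 0.17, adjusted p = 0.000406), and Lama2, Nid2, Prelp and Ogn were also lower. The collagens and matrix list had 10 higher and 5 lower calls without knockout 1 or knockout 3, 8 higher and 4 lower calls without wild-type 2, and 11 higher and 4 lower calls without wild-type 3. Of 59 genes in the ontology term basement membrane, picked after values were seen, 15 rose and 5 fell (33.9%).

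Matrix-degrading enzymes, patterning factors and vascular markers showed a smaller number of rises. Of 26 metalloproteinases and inhibitors 5 rose and 0 fell (19.2%, beside 11.7% of all and 13.7% of protein-coding autosomal genes). Mmp13, a collagenase, had 1.21 ± 0.565 CPM in knockout and 0.0788 ± 0.0683 CPM in wild-type cells (log2 difference 3.92 ± 0.58, adjusted p = 0.00217), and Timp3, an inhibitor, 1922 ± 80 CPM in knockout and 1368 ± 45.7 CPM in wild-type cells, a call lost without wild-type library 2 (adjusted p up to 0.0512). The metalloproteinases and inhibitors list had 3 higher and 0 lower calls without knockout 1, 2 higher and 0 lower calls without knockout 3 or wild-type 3, and 1 higher and 0 lower calls without wild-type 2. Of 53 regional patterning factors 6 rose and 3 fell (17%). Msx2, a homeobox factor of dorsal and skull tissue, had 27.1, 17.7 and 29.4 CPM in the knockout, against 4.32, 3.47 and 5.09 CPM in wild type (log2 difference 2.52 ± 0.22, adjusted p = 7.31e-05), and Foxc1, a forkhead factor of the meninges, 40.3 ± 4.07 CPM in knockout and 21.3 ± 3.56 CPM in wild-type cells (log2 difference 0.92 ± 0.13, adjusted p = 0.00188), while Nkx6-2 was lower at 5.24 ± 0.761 CPM in knockout and 11 ± 1.49 CPM in wild-type cells (log2 difference -1.07 ± 0.17, adjusted p = 0.00311). Of 23 Wnt and hedgehog genes 4 rose and 2 fell (26.1%). Foxf2, Nkd2 and Wif1 were higher, with Nkd2, an inhibitor of Wnt signalling, at 14.5, 12.7 and 16.9 CPM in the knockout, against 2.34, 1.89 and 1.24 CPM in wild type. For Nkd2 the log2 difference was 3.01 ± 0.25 (adjusted p = 6.35e-05). The calls of Ptch1 and Gli3, both lower, were lost without knockout library 1 and without wild-type library 2 or 3 (adjusted p up to 0.129) and without knockout library 1 or 3 and without wild-type library 2 or 3 (adjusted p up to 0.0843). Aldh1a2, the meningeal enzyme that makes retinoic acid, had 39.8, 11.9 and 19.2 CPM in the knockout, against 1.76, 0.938 and 0.633 CPM in wild type (log2 difference 4.41 ± 0.6, adjusted p = 0.00129), and Pdgfrb 135 ± 18.1 CPM in knockout and 85.8 ± 6.24 CPM in wild-type cells (log2 difference 0.65 ± 0.1, adjusted p = 0.0029). The sum of fibroblast and meningeal markers was higher in each knockout library too, and its part in the result was not tested. Of 10 endothelial markers 2 rose (Cdh5 and Esam) and 1 fell (Kdr), the rises being lost without knockout library 1 or 3 and without wild-type library 2 or 3 (adjusted p up to 0.0741) and without knockout library 1 or 3 and without wild-type library 3 (adjusted p up to 0.0595). Of 9 pericyte markers Des and Notch3 rose, calls lost without knockout library 1 or 3 and without wild-type library 1 (adjusted p up to 0.107) and without knockout library 1 or 3 and without wild-type library 2 (adjusted p up to 0.0686). The Wnt and hedgehog targets list had 3 higher and 0 lower calls without knockout 1 or wild-type 2 or wild-type 3, and 3 higher and 1 lower calls without knockout 3. The endothelial cells list had 0 higher and 1 lower calls without knockout 1 or knockout 3 or wild-type 3, and 1 higher and 1 lower calls without wild-type 2. The pericytes and smooth muscle list had 0 higher and 0 lower calls without knockout 1 or knockout 3, and 1 higher and 0 lower calls without wild-type 1 or wild-type 2.

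**Figure D4:**
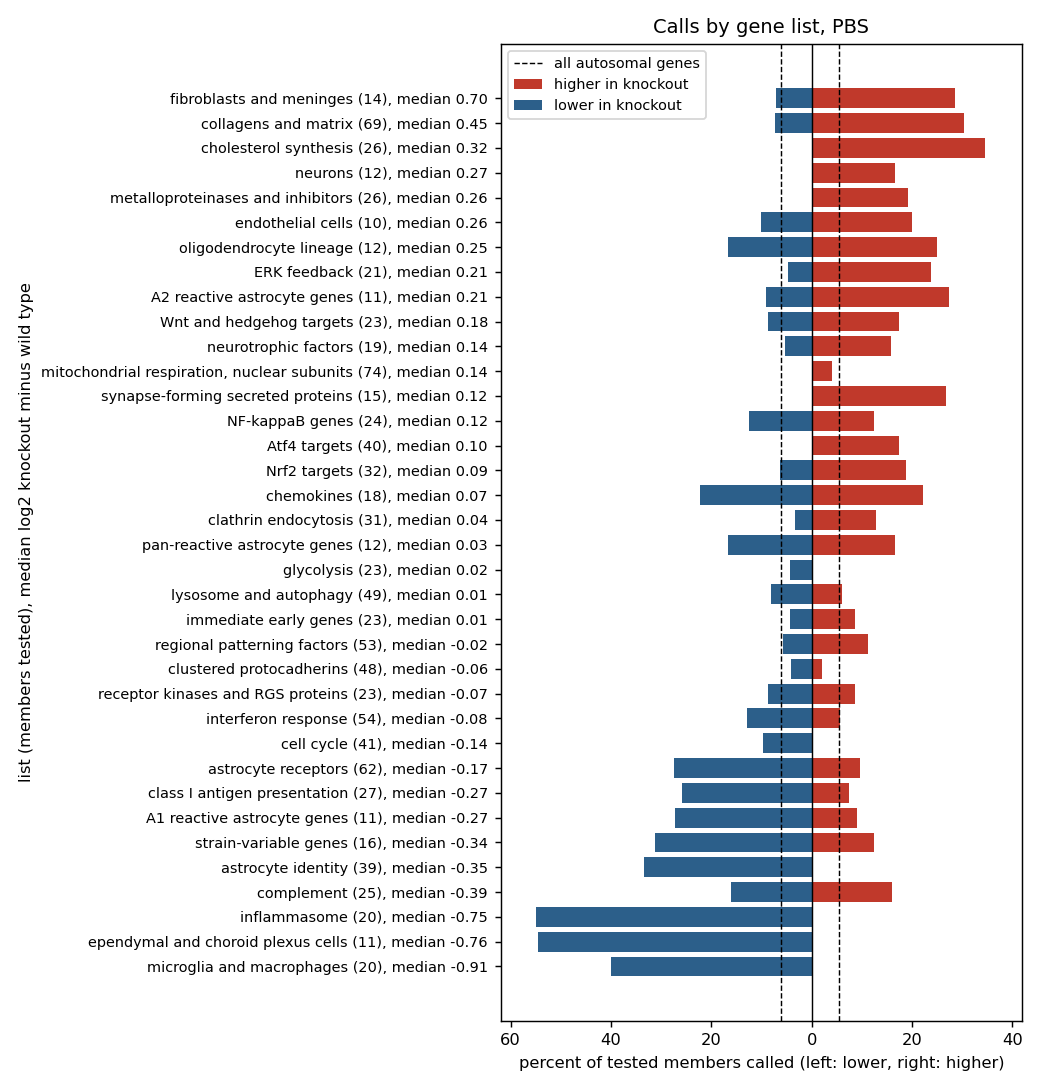
Percent of tested members called higher (red, right) and lower (blue, left) in the knockout for each list with at least 10 tested members, ordered by the median log2 difference printed with its name. Dashed lines mark 5.5% higher and 6.18% lower over all autosomal genes tested, and matrix and cholesterol genes extend furthest to the right while inflammasome, ependymal and microglial genes extend furthest to the left.

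Of 26 cholesterol synthesis genes tested, 9 were higher and 0 lower (34.6%). The median log2 difference of the 26 was 0.32, and 22 had a positive and 4 a negative sign. Fdps, farnesyl diphosphate synthase, had 64.4, 44.3 and 51.3 CPM in the knockout, against 36, 35.1 and 31.3 CPM in wild type. For Fdps the log2 difference was 0.64 ± 0.12 (adjusted p = 0.00799). Knockout library 2 was the lowest knockout library, above all wild-type ones. Stard4, a cholesterol carrier, and Dhcr7, the last enzyme of one branch, had 50.9 ± 3.22 CPM in knockout and 35.4 ± 1.39 CPM in wild-type cells and 24.5 ± 0.921 CPM in knockout and 17.4 ± 1.02 CPM in wild-type cells, and the calls of Lss and Tm7sf2 were lost without knockout library 1 or 3 (adjusted p up to 0.0532) and without knockout library 1 or 3 and without wild-type library 2 or 3 (adjusted p up to 0.0824). The cholesterol synthesis list had 5 higher and 0 lower calls without knockout 1, 10 higher and 3 lower calls without knockout 2, and 4 higher and 0 lower calls without knockout 3. The letters TCACNCCAC, a strict form of the sterol regulatory element picked after values were seen, were searched for on both strands. They were in 0 of the 6 windows that the RefSeq table held for the 9 called genes, beside 408 of all 32851 windows (1.24%). Other forms were not searched for. In the lists of stress targets, Slc7a11, the cystine transporter, stood out with 56.9, 80.2 and 93.3 CPM in the knockout, against 20.3, 10.2 and 19.1 CPM in wild type. For Slc7a11 the log2 difference was 2.22 ± 0.24 (adjusted p = 0.000366). It is a target of both Atf4 and Nrf2. Of 40 Atf4 targets 7 rose and 0 fell (17.5%), and of 32 Nrf2 targets 6 rose and 2 fell (25%). Over all autosomal genes 11.7% were called, and over protein-coding ones 13.7%. Nqo1, a quinone reductase, had 22.3 ± 0.843 CPM in knockout and 13.9 ± 1.79 CPM in wild-type cells (log2 difference 0.68 ± 0.12, adjusted p = 0.00618) and Gstm6, a glutathione transferase, 6.28 ± 1.55 CPM in knockout and 19.2 ± 1.22 CPM in wild-type cells (log2 difference -1.61 ± 0.22, adjusted p = 0.00118). The Atf4 targets list had 3 higher and 0 lower calls without knockout 1, 4 higher and 1 lower calls without knockout 3, and 4 higher and 0 lower calls without wild-type 2 or wild-type 3. The Nrf2 targets list had 4 higher and 1 lower calls without knockout 1 or wild-type 2, 5 higher and 1 lower calls without knockout 3 or wild-type 3, and 6 higher and 1 lower calls without wild-type 1.

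Genes downstream of receptor signalling and growth gave few calls that held without each library. Of 21 ERK feedback genes 5 rose and 1 fell (28.6%), by 0.32 to 0.94 where they rose. Dusp6, the phosphatase of ERK, had 164, 137 and 167 CPM in the knockout, against 122, 99 and 109 CPM in wild type. For Dusp6 the log2 difference was 0.50 ± 0.1 (adjusted p = 0.00919), and the call of Dusp4 was lost without knockout library 1 or 3 and without wild-type library 2 or 3 (adjusted p up to 0.0809). Of 23 immediate early genes Fosl1 and Klf4 rose, calls lost without knockout library 1 and without wild-type library 2 (adjusted p up to 0.0662) and without knockout library 1 or 3 and without wild-type library 2 or 3 (adjusted p up to 0.109), and Atf3, a stress-induced factor, fell (10.2 ± 1.09 CPM in knockout and 18.2 ± 1.71 CPM in wild-type cells, log2 difference -0.84 ± 0.096, adjusted p = 0.000441). Of 41 cell cycle genes 4 fell and 0 rose (9.76%, beside 11.7% of all and 13.7% of protein-coding autosomal genes). A negative sign was found in 34 of the 41 (median -0.14). The list summed to 1884 to 2225 CPM in the knockout libraries and 2322 to 2365 CPM in the wild-type ones. In a fit of the 2 PBS groups alone 8 fell, with DESeq2 7, with library totals 7 and with no filter or a replicate block 2. Mki67, a marker of dividing cells, had 188 ± 13.6 CPM in knockout and 244 ± 5.57 CPM in wild-type cells, a call lost without any knockout library and without any wild-type library (adjusted p up to 0.12). Of 74 nuclear subunits of mitochondrial respiration 3 rose (4.05%), and of 23 glycolysis genes 1 fell (4.35%), beside 11.7% of all autosomal genes. In the respiration list 62 of the 74 had a positive sign (median 0.14), and 9 rose in a fit of the 2 PBS groups alone and with DESeq2. Lysosome and autophagy genes gave 3 higher and 4 lower of 49 (14.3%), and clustered protocadherins 1 and 2 of 48 (6.25%). Of the immediate early genes above, 13% were called. Among 19 neurotrophic factors, Bdnf, Fgf1 and Vegfa rose and Fgf9 fell (21.1%). Fgf1 had 116 ± 3.23 CPM in knockout and 63.6 ± 9.33 CPM in wild-type cells (log2 difference 0.87 ± 0.16, adjusted p = 0.00638), while the calls of Bdnf and Fgf9 were lost without knockout library 1 and without wild-type library 2 (adjusted p up to 0.0604) and without knockout library 1 and without wild-type library 2 (adjusted p up to 0.0617). Of 15 secreted synapse-forming proteins Bcan, Thbs1, Tnc and Nlgn2 rose, with Bcan, the proteoglycan brevican, at 110.2, 117 and 110.4 CPM in the knockout, against 59.5, 61.5 and 62.8 CPM in wild type. For Bcan the log2 difference was 0.88 ± 0.11 (adjusted p = 0.000964). The ERK feedback list had 1 higher and 2 lower calls without knockout 1, 2 higher and 0 lower calls without knockout 3, 2 higher and 1 lower calls without wild-type 1, 1 higher and 0 lower calls without wild-type 2, and 3 higher and 0 lower calls without wild-type 3. The immediate early genes list had 0 higher and 1 lower calls without knockout 1 or wild-type 2, and 1 higher and 1 lower calls without knockout 3 or wild-type 3. The cell cycle list had 0 higher and 2 lower calls without knockout 1, 0 higher and 0 lower calls without knockout 2 or wild-type 2, and 0 higher and 1 lower calls without knockout 3 or wild-type 1 or wild-type 3. The mitochondrial respiration, nuclear subunits list had 1 higher and 0 lower calls without knockout 1 or wild-type 1. The glycolysis list had 0 higher and 0 lower calls without knockout 1 or knockout 3 or wild-type 2 or wild-type 3, and 2 higher and 2 lower calls without knockout 2. The lysosome and autophagy list had 1 higher and 1 lower calls without knockout 1 or knockout 3 or wild-type 2, and 0 higher and 5 lower calls without wild-type 3. The clustered protocadherins list had 0 higher and 0 lower calls without knockout 1 or knockout 3 or wild-type 3, 1 higher and 1 lower calls without knockout 2, and 0 higher and 1 lower calls without wild-type 2. The neurotrophic factors list had 2 higher and 0 lower calls without knockout 1 or wild-type 2. The synapse-forming secreted proteins list had 2 higher and 0 lower calls without knockout 1 or knockout 3 or wild-type 1 or wild-type 3, 3 higher and 2 lower calls without knockout 2, and 1 higher and 0 lower calls without wild-type 2.

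Within 2 Mb of Arrb2, 14 of 125 genes tested were called (11.2%, beside 11.7% over all autosomes), 5 higher and 9 lower. Besides Slc2a4, Xaf1, Nlrp1a and Nlrp1b, these were Dnah2 (log2 difference -1.25 ± 0.23, adjusted p = 0.00636), Kctd11 (log2 difference -0.55 ± 0.097, adjusted p = 0.00525) and Pik3r5, Cxcl16, Atp1b2, Polr2a, Trp53, C1qbp, Txndc17 and Nlgn2. The calls of Cxcl16, C1qbp and Nlgn2 were lost without each of the 6 libraries in turn, and that of Txndc17 without every one but knockout library 2. The call of Polr2a was lost without knockout library 1 and without any wild-type library (adjusted p up to 0.0685), that of Atp1b2 without knockout library 1 or 3 and without wild-type library 2 or 3 (adjusted p up to 0.0958) and that of Nlrp1b without knockout library 1 or 3 and without wild-type library 1 or 2 (adjusted p up to 0.11). Pik3r5 and Trp53 lost theirs without knockout library 1 or wild-type library 2. Within 5, 10 and 20 Mb the share was 10.3%, 9.22% and 13.8%. By chromosome it ran from 9.14% on chromosome 13 to 14.9% on chromosome 17, with 13.7% on chromosome 11. Around Arrb1, a window added after values were seen, 10 of 64 genes within 2 Mb were called (15.6%), 9 of them lower.

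The difference between genotypes was also measured in MPP+, in 6 libraries that the PBS comparison did not use. There 3334 of the 18538 autosomal genes were called (18.0%), 1509 higher (8.14%) and 1825 lower (9.84%). Of the 2165 genes called in PBS, 1830 had the same sign in MPP+ (84.5%) and 1021 were called there with the same sign (47.2% of the PBS calls and 30.6% of the MPP+ calls), while 41 were called with the opposite sign. Of the 672 that differed at least 2-fold in PBS, 620 kept their sign (92.3%). Some lists did not keep their balance of calls. In MPP+ astrocyte identity had 9 higher and 5 lower calls (0 and 13 in PBS), and cholesterol synthesis 3 and 3 (9 and 0). Astrocyte receptors had 11 and 13 (6 and 17 in PBS), and ERK feedback 3 and 4 (5 and 1). The matrix list had 28 and 8 (21 and 5 in PBS). Inflammasome genes had 1 and 10 (0 and 11 in PBS), and microglial markers 1 and 11 (0 and 8). Elobl had a log2 difference of -9.61 in PBS and -9.52 in MPP+, Fcrls -3.42 and -3.46, and Apod 4.54 and 5.04. Arrb1 had a log2 difference of -2.01 in PBS but -0.15 ± 0.47 in MPP+, where it was not called (adjusted p = 0.875), and the difference between the settings was not called either (adjusted p = 0.182). Arrb2 had -0.83 in PBS and -0.57 ± 0.16 in MPP+ (adjusted p = 0.0363). Since the sums of Y-linked genes followed the replicate number, PBS and MPP+ libraries of one number may share a culture, and the 2 comparisons may not be independent. A test of the difference between the settings called 277 of all autosomal genes (1.49%), 150 of them among the PBS calls.

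**Figure D5:**
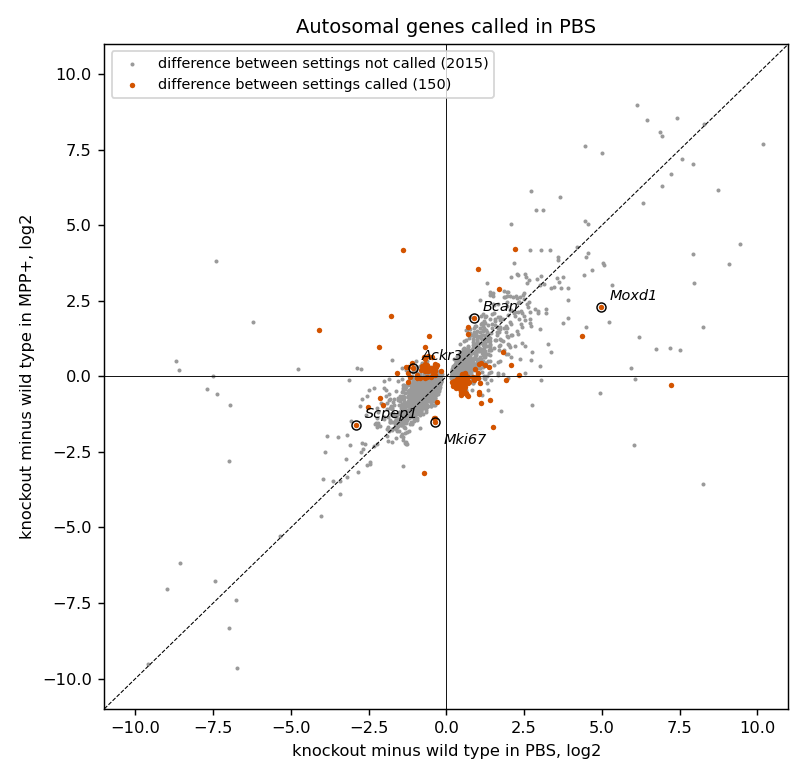
Knockout minus wild type on the log2 scale in MPP+ (vertical axis) against PBS (horizontal axis) for the autosomal genes called in PBS, with the 150 whose difference between settings was called in orange and the line of equal differences dashed. Most genes lie at the lower left and upper right, Scpep1 and Moxd1 differ less between genotypes in MPP+ than in PBS, and 1 gene lies outside the axes.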

How the data were processed

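RNA-seq of 12 mouse astrocyte samples was used, in 4 groups of 3 by genotype and treatment taken from the labels. The deposited table gives, per gene, the authors' raw counts and FPKM, with builds GRCm38 and mm10 per the submitters' processing notes. For the aligner, the counter and any use of strand, the sources used here give nothing, so overlapping or near-identical genes and antisense partners are uncertain. Positions come from the deposited table, whose 32742 starts match GENCODE M21, and gene types from that annotation by identifier.

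Counts were tested with edgeR 4.0.16 (R 4.3.3; filterByExpr with a minimum count of 10 and minimum total of 15; TMM; quasi-likelihood, 1 mean per group over all 12 samples, 2-sided), with Benjamini-Hochberg adjustment over 21129 genes and a call at 0.05. The standard error is the log2 difference over the square root of F. CPM use TMM-scaled library sizes. Alternatives were the 2 groups alone, DESeq2 1.42.0, RLE factors, library totals, limma 3.58.1 on log2(FPKM + 0.5) or log2(FPKM + 0.1), no filter, a minimum count of 50 with at least 1 CPM in 3 samples, a replicate block and leaving out each PBS library. Totals were 67367654 to 69543713 counts per PBS library. Counts are reads, so floors of 3 counts per group cover counting error only. The fit was checked on simulated counts.

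Named genes are the beta-arrestins, the 12 protein-coding genes with the largest rise and fall and at least 2 CPM, the 10 with the largest CPM difference, 3 pseudogenes a direction, up to 6 called members a list and called neighbours within 2 Mb of Arrb2. The 40 lists and the comparison were chosen with earlier results of these data known. Chosen after values were seen were 16 further genes, the 2 motifs, the 5 ontology terms, the windows around Arrb1, the copy families and the 50-base word check, which counts words of a gene's transcripts, on either strand, that occur in transcripts of another gene. Promoters come from RefSeq (GRCm38.p6). Some called genes are not reported here.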

Additional observations from a re-analysis of the deposited data

Results flagged for a closer look

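For 20 of the 232 named genes, the knockout minus wild type difference in PBS differed from that in MPP+ by a test of the difference itself (interaction term of the same edgeR fit, adjusted p under 0.05). Most named genes were chosen for their difference in PBS, which is part of this test, so the share of 20 in 232 cannot be set against that of all genes. Values are the PBS minus the MPP+ difference on the log2 scale. Scpep1 had the lowest adjusted p (3.42e-06) and was called in both settings, at -1.29 for Scpep1 (-2.91 in PBS, -1.62 in MPP+). Moxd1 was also called in both, at 2.68 for Moxd1 (4.97 in PBS, 2.29 in MPP+).

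Among genes higher in the knockout in PBS, the difference was 0.71 for Akap12 (0.69 in PBS, -0.02 in MPP+), 0.43 for Trp53 (0.22 in PBS, -0.21 in MPP+), 0.85 for Mdm2 (0.53 in PBS, -0.32 in MPP+), 0.68 for Dusp6 (0.50 in PBS, -0.17 in MPP+), 0.62 for Icam1 (0.46 in PBS, -0.15 in MPP+), 0.46 for Fbln5 (0.53 in PBS, 0.07 in MPP+), 0.58 for Vegfa (0.34 in PBS, -0.24 in MPP+), 0.49 for Ndufv2 (0.38 in PBS, -0.11 in MPP+) and 0.62 for Notch3 (0.36 in PBS, -0.26 in MPP+). It was -1.04 for Bcan (0.88 in PBS, 1.92 in MPP+) and -0.94 for Nqo1 (0.68 in PBS, 1.62 in MPP+), the pair in which the rise was larger in MPP+. Trp53 encodes p53 and Mdm2 the ligase that degrades it, and both, like Vegfa, were called in the opposite direction in MPP+.

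Among genes lower in the knockout in PBS, the difference was -1.36 for Ackr3 (-1.07 in PBS, 0.29 in MPP+), -1.35 for Irgm2 (-1.23 in PBS, 0.12 in MPP+), -1.03 for Id4 (-0.74 in PBS, 0.28 in MPP+), -0.77 for Atf3 (-0.84 in PBS, -0.07 in MPP+) and -0.66 for Aldh1l1 (-0.70 in PBS, -0.04 in MPP+). For the proliferation genes it was 1.14 for Mki67 (-0.38 in PBS, -1.52 in MPP+) and 1.02 for Bub1b (-0.35 in PBS, -1.37 in MPP+), where the fall was larger in MPP+.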

How the results depend on the processing

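No named gene reversed its sign under any of the 15 alternatives. DESeq2 called 1722 genes lower and 112 pseudogenes, and limma on log2(FPKM + 0.5) called 1821 lower and 111 pseudogenes, where the reported fit had 1146 and 73. Without 1 library, the number of genes called ran between 1027 and 2225 (2165 reported), higher calls between 451 and 997, lower calls between 576 and 1228, pseudogenes between 47 and 70, calls of the same sign in MPP+ between 907 and 1840 (1830 reported), and members of the functional lists called between 105 and 228 (212 reported). The log2 difference of Arrb1 lay between -2.07 and -1.98. Without wild-type library 2, 95 of the named genes lost their call, without knockout library 1 it was 83 and without knockout library 3 it was 79. Of 80 list counts, 19 moved by over 1.5 times with DESeq2 and 16 with the 2 groups alone. More moved without wild-type library 2 (38), knockout library 3 (37) or knockout library 1 (36). The counts moved were 21 without wild-type library 3, 19 without wild-type library 1 and 9 without knockout library 2. The causes were not tested. With a replicate block 2289 genes were called, 1071 higher and 1218 lower. The same numbers did not pair all samples by the check used (correlations of deviations 0.0121, 0.0603 and 0.00863). Knockout 1 correlated best with wild type 3 (0.0237), but knockout 2 correlated best with wild type 2 (0.0603). These libraries numbered 2 also lay apart from the others on the second principal component. Depth limits genes near the count minimum, where 0 counts in a group allow up to 3.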
